A study of Bos taurus with 2 samples.

Results

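B and plasma cell genes were examined in the testis of crossbred and Zebu bulls. They are 7 genes (IGJ, CD79A, CD79B, MS4A1, PAX5, POU2AF1 and BLK) of the 32429 gene names on the array. They were taken by gene name and not by their values, and they were measured by 10 probes in 12 spots of the 51282 probes in 61657 spots that were not controls. The crossbred group was 3 bulls of 24 months with Holstein Friesian inheritance and the Zebu group was 3 bulls of 24 months of the Tharparkar breed. The right testis was taken by unilateral castration, and the RNA of the 3 bulls of a group was combined and hybridized to 1 array with the dye Cy3. There was no replicate of either group, so no test between the groups could be made and no p-value is given. A difference seen here can come from 1 bull of a pool of 3, and breed, animal and array cannot be told apart.

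B cells carry an antibody on their surface, which signals through a pair of partner proteins, CD79A and CD79B. When a B cell becomes a plasma cell it secretes the antibody instead, and the J chain encoded by IGJ (named JCHAIN in current annotation) joins antibody units into secreted IgM and IgA. Lymphocytes are usually sparse in the testis and lie in the tissue between the tubules.

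The main observation was a split among the genes. IGJ was 8.59-fold higher on the crossbred array, PAX5 was 18.8-fold higher in a single spot, and MS4A1 was at least 20.4-fold higher in 1 probe, whose spots alone gave at least 57.6-fold and 7.19-fold, and at least 3.02-fold in another, whereas CD79A, CD79B, POU2AF1 and BLK lay within 1.68-fold of each other between the arrays. Of the 20 detected probes annotated to antibody chains, some only in a next best match entry, 14 were higher on the crossbred array, against 6.14% of all detected probes. Of the 15 detected on both arrays 9 were higher, against 5.4%. PAX5, 2 of the 3 IGJ spots and 1 of the 3 MS4A1 spots had at least 2 adjacent spots that were also higher on that array. Because whole testis was measured, more cells of a type and more RNA per cell cannot be told apart.

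Levels are given as the log2 of the processed signal minus the 75th percentile of the array, so that 0 is the 75th percentile, and each difference is crossbred minus Zebu. A probe was taken as detected where the scanner software marked all of its spots as well above background on at least 1 array. A gene was read from its brightest probe, and a difference of at least 1.5 on the log2 scale, which is 2.83-fold, counted as higher or lower. Where the dimmer array was not well above background the fold is a bound, written as at least N-fold, against the lowest level that was well above background there. The count rests on the measured difference also in that case, so a gene or probe can be counted although its bound is under 2.83-fold, and such cases are named. The SD of a difference between spots of the same probe was 0.33 over 5960 probes, which covers spotting and scanning only. Probe positions are those of the array annotation on the HGSC Btau_3.1 build, and levels of different probes are not compared.

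The array reads these genes through 60-base probes. Those that fall in coding sequence are shown here because they tell which part of each transcript was measured. The CD79A probe below encodes part of the signalling tail, and the capitals mark the codons of the paired tyrosines that are phosphorylated when the receptor is engaged. It lies on the minus strand at chr18:51076548-51076758 and crosses an exon junction. The CD79B probe reads a stretch rich in codons of hydrophobic residues at chr19:49674863-49674922 on the minus strand. The MS4A1 probe crosses a junction on the plus strand at chr15:84166872-84168085, and the PAX5 probe crosses a junction on the minus strand at chr8:63785420-63815322. The IgM and IgG1 probes read heavy chain, and the probe listed as IGLL1, an immunoglobulin lambda-like gene, lies on the plus strand at chr17:74441673-74441732.
CD79A A_73_P109866: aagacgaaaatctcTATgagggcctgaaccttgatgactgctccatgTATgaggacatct
CD79B A_73_P066211: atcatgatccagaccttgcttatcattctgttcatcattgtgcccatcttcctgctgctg
MS4A1 A_73_115697: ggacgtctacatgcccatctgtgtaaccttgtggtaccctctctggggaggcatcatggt
PAX5 A_73_100824: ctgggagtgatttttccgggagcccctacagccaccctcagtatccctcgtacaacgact
IgM heavy chain A_73_103890: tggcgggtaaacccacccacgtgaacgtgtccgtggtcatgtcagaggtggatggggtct
IgG1 heavy chain A_73_110919: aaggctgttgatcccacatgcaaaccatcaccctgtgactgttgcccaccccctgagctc
IGLL1 A_73_P376128: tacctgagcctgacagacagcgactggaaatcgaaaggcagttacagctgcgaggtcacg

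IGJ was measured in 3 spots of 2 probes. The processed signal in these spots was 3868, 2585 and 2455 for crossbred testis and 472, 271 and 301 for Zebu testis. Each of the 3 spots was brighter on the crossbred array than on the Zebu array. The spots share 1 array a group, so they are not replicates of the group. Probe A_73_P168392, at chr6:88905404-88905463, gave normalized log2 signals of 1.72 (crossbred) and -1.38 (Zebu), which differ by 3.10. Probe A_73_113362, at chr6:88905085-88905144, gave 1.10 and -2.11, which differ by 3.21, and its 2 spots were 0.07 apart in crossbred and 0.15 apart in Zebu testis. Both probes were on the minus strand and gave nearly the same fold, 8.59 and 9.25. Across gene names with at least 2 detected probes, every probe was higher by the same rule in 2.14%. The spot of A_73_113362 that differed by 3.10 had only 1 measured adjacent spot, which was not higher by 1.5 or more. Around the other spot of A_73_113362, 3 of 5 measured neighbours were higher, and around the spot of A_73_P168392, 2 of 6.

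**Figure D1:**
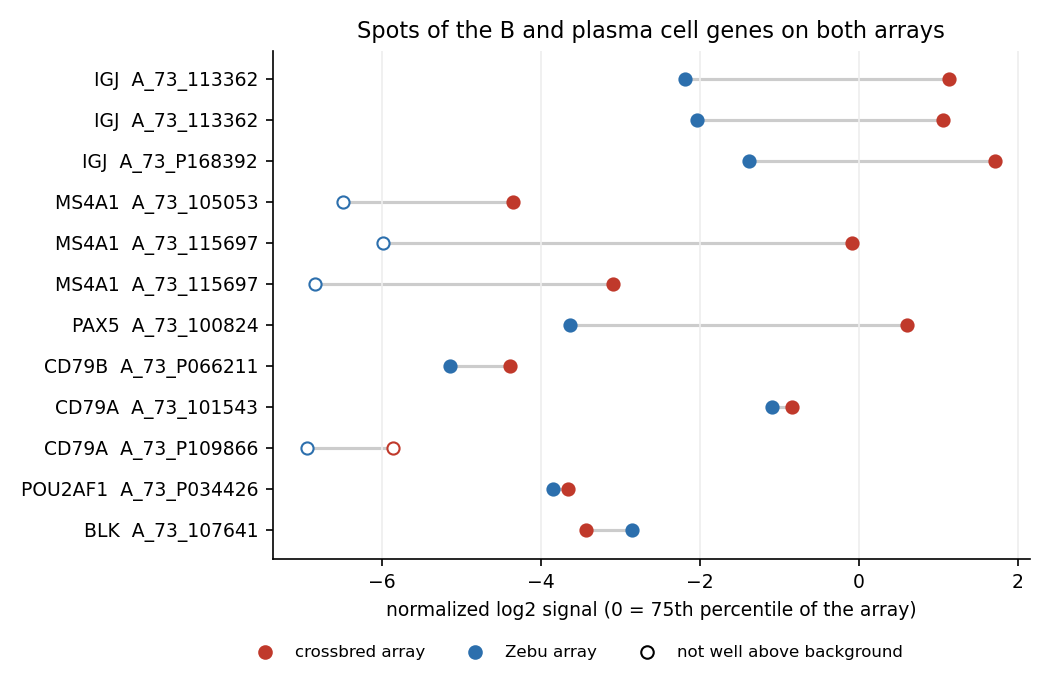
Normalized log2 signal (x axis) of each spot of the 7 genes (y axis, gene and probe) on the crossbred array (red) and the Zebu array (blue), with open circles where the spot was not well above background. The 3 IGJ spots differ by 3.10 to 3.32, and CD79A, POU2AF1 and BLK lie close together where they were detected.

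The antibody receptor itself looked different from IGJ. CD79A, read from probe A_73_101543 at chr18:51076126-51076185, had processed signals of 655 in crossbred and 579 in Zebu testis, a difference of 0.25 that is smaller than the SD between spots. Its coding probe shown above was not well above background on either array, so no fold is given for it. CD79B had a level of -4.39 in crossbred and -5.14 in Zebu testis, a difference of 0.75 or 1.68-fold, near the lower end of the detected range. Neither partner protein reached the threshold. BLK, a kinase of the SRC family that acts beneath the B cell receptor, had 109 in crossbred and 171 in Zebu testis, a difference of -0.57. POU2AF1, a coactivator of antibody gene transcription, had 92.8 and 85.9, a difference of 0.18. BLK was thus the one gene with a lower value on the crossbred array, and it did not pass the threshold either.

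MS4A1 encodes CD20, a membrane protein of B cells that plasma cells lose. Its probe A_73_115697 gave processed signals of 1104 and 138 in its 2 crossbred spots against 19.5 and 10.7 in the same spots on the Zebu array. The crossbred spots thus differed from each other by 3.0 on the log2 scale, and a gap of over 3 between spots of a probe was found for 105 probes in crossbred and for 4 in Zebu testis. In Zebu testis neither spot was well above background, and the bound was at least 20.4-fold from the mean of both spots. Taken alone, the brighter spot gave at least 57.6-fold and the dimmer spot at least 7.19-fold. A further probe, A_73_105053 at chr15:84172259-84172318, had 57.8 and 13.7 and was at least 3.02-fold higher. All 3 spots were well above background on the crossbred array only, and the size of the difference depended on which spot was read.

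PAX5, the transcription factor that holds cells to the B lineage, was read from 1 spot. Its processed signal was 1788 in crossbred and 99.5 in Zebu testis, and the levels differed by 4.24. Of the 6 spots adjacent to it, 3 were also higher on the crossbred array by 1.5 or more, and the median difference of its measured neighbours among the 18 nearest was 1.22. Among all detected spots, 3.76% had at least 2 adjacent spots that were higher by 1.5 or more. The brighter MS4A1 spot also had 2 such neighbours, with a median of 0.58, and the dimmer spot had none of 2. The part of the surrounding spots in the PAX5 and MS4A1 values was not tested. The crossbred array has a dark patch (rows 54 to 99) and a bright patch further down, and none of the 12 spots lay in either.

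**Figure D2:**
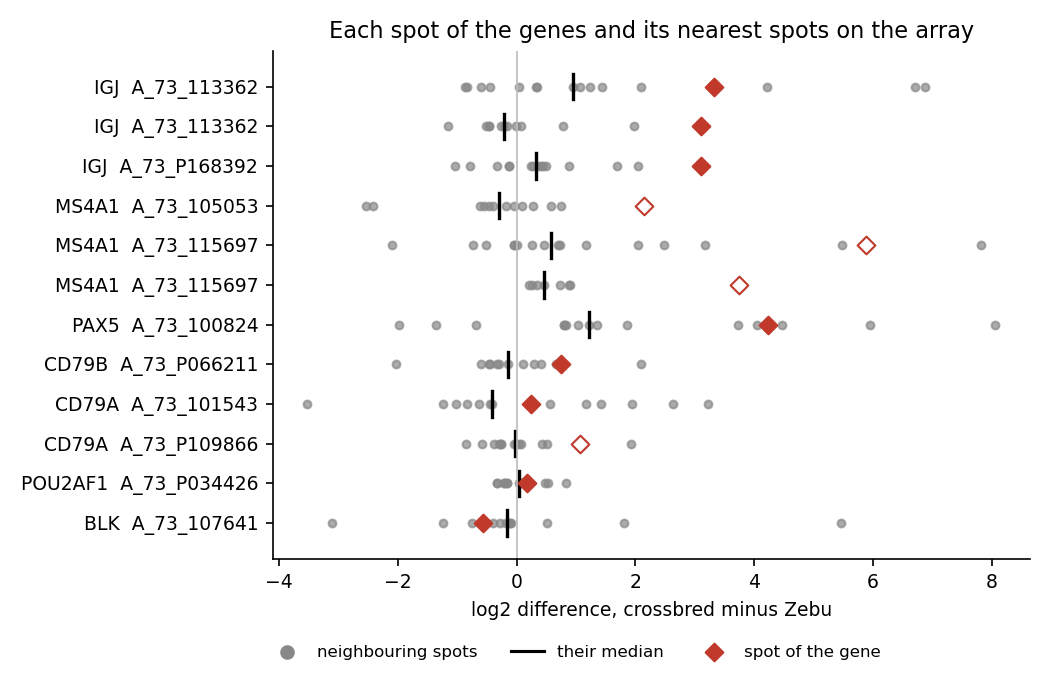
Log2 difference, crossbred minus Zebu (x axis), of each spot of the 7 genes (diamonds, open where the spot was not well above background on both arrays) and of the nearest spots with a value among 18 (grey, black bar at their median). The neighbours of PAX5 have a median of 1.22 and reach beyond the gene's own value, whereas those of the second IGJ spot from the top have a median of -0.22.

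In all, 3 of the 7 genes were higher on the crossbred array and 0 were lower. Among the 24758 gene names detected, 7.25% were higher and 2.98% were lower. Called on the bound in place of the measured difference, the count was again 3 higher and 0 lower, against 6.72% and 2.09% of gene names. On that scale 0.65% of gene names lay at 3 or more, and so did IGJ, PAX5 and MS4A1, the last from a bound only. By the same measure 142 gene names had a larger value than IGJ and 51 a larger one than PAX5. The median difference of the 7 genes was 0.75, against -0.05 over all gene names.

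**Figure D3:**
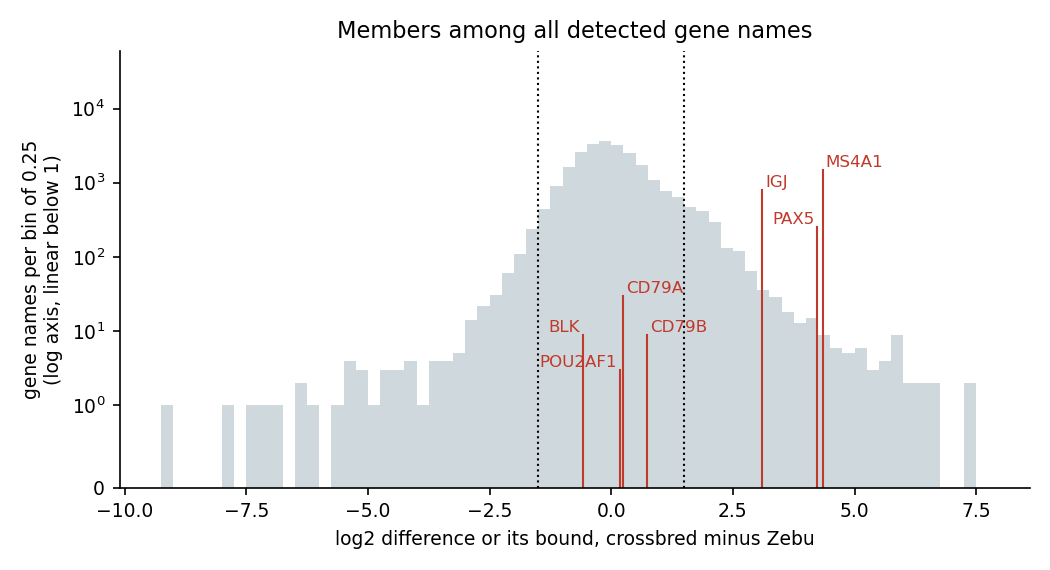
Number of gene names (y axis, log scale that is linear below 1) per bin of the log2 difference or its bound, crossbred minus Zebu (x axis), over the gene names detected, with the 7 genes as red lines whose height has no meaning. Dotted lines mark 1.5 in each direction. IGJ, PAX5 and MS4A1 lie in the right tail beyond 3, and the other 4 lie between the dotted lines.

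Antibody chains are what the J chain is joined to, so every probe whose annotation names an immunoglobulin chain was read as well. There were 31 such probes. Some are predicted transcripts whose annotation names the chain in a next best match entry, so what they measure is less certain. Among those, a heavy chain probe was at least 15.0-fold higher, a light chain probe differed by -0.06 and another heavy chain probe was detected on neither array. Of these, 15 were detected on both arrays and 5 in crossbred testis alone, while 0 were detected in Zebu testis alone and 11 in neither. Of the 20 detected, 14 were higher on the crossbred array and 0 were lower. Among all detected probes, 6.14% were higher and 2.99% lower. The 5 probes detected in crossbred testis alone passed the filter through the array on which they were high, and of the 15 detected on both arrays 9 were higher. By the bounds, 13 of the 20 passed, against 5.61% of all detected probes. None of their spots lay in either patch. Antibody genes share long stretches of near-identical sequence, so a probe can bind several of them and the assignment to 1 gene is uncertain.

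Among the heavy chains, 6 of 7 detected probes were higher, or 5 by the bounds, against 6.14% and 5.61% of all detected probes. Of these 7, 2 passed the filter through the crossbred array alone, among them a predicted transcript that names an IgM gene in a next best match entry. Of the 5 detected on both arrays 4 were higher, against 5.4% of all such probes. IgM, the first antibody class that a B cell makes, had processed signals of 1747 and 1653 in its 2 crossbred spots against 28.2 and 37.4 in the Zebu spots, a difference of 5.78 or 54.9-fold. Both spots of the crossbred array were far above both Zebu spots. The Zebu levels of -5.45 and -5.04 were near -5.94, the lowest level well above background there, so the size of the fold is uncertain. Around the spot with 1747, 2 of 6 measured adjacent spots were also higher on the crossbred array, and around the other 0 of 5. IgG1 had 848 and 127, a difference of 2.81, and IgG2a, named as a hinge and constant region record, was detected on the crossbred array only, with a measured difference of 2.33 and a bound of at least 2.65-fold, which is under the threshold. A further constant region probe, A_73_103988, was 8.16-fold higher, and A_73_P107506 was 11.1-fold higher. IgD, which resting B cells carry beside IgM, had 69.0 and 60.4, a difference of 0.26, and was the exception. The heavy chain variable region probes were on neither array above background, as was the constant region of IgE.

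Light chains complete the antibody. The array lists 6 probes under the name IGLL1, all on chromosome 17, placed between positions 74069491 and 74454504. Whether they measure that gene or the lambda light chain genes was not settled here, though A_73_P488448 is read below as a lambda V segment probe. Of these 6 probes, 5 were higher, by 3.07 to 6.01. Probe A_73_P376128, shown above, had processed signals of 9513 and 154, a 64.6-fold difference, and A_73_P412691 had 13190 and 298. The remaining IGLL1 probe, A_73_P488448, had 128 and 106, a difference of 0.34. The single kappa constant region probe had 6901 and 6301, a difference of 0.20. Neither of these last 2 probes passed the threshold.

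The lambda variable region probes differed among themselves in a feature of their sequence. A light chain gene is made by joining a V segment to a J segment, and an unjoined V segment is followed by a recombination signal that begins with the heptamer CACAGTG. The probes below were chosen after their values were seen, and capitals mark the heptamer. The first pair, from antibody mRNA, has no heptamer, and 49 of 60 bases of each are placed at their V segment on the plus strand of chromosome 17, at chr17:74087407-74087455 and chr17:74099282-74099330. The second pair runs from the V segment into the heptamer, the first of them at chr17:74069643-74069702 on the plus strand and the other on an unplaced scaffold.
Lambda V, mRNA, A_73_P108511: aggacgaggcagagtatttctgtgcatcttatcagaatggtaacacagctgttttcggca
Lambda V, mRNA, A_73_P108416: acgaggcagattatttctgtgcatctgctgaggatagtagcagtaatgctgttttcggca
Lambda V with heptamer, A_73_P488448: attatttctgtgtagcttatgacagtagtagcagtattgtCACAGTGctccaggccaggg
Lambda V with heptamer, A_73_P053496: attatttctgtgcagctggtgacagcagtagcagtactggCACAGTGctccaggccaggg

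The 2 mRNA probes had processed signals of 223 and 289 in crossbred testis and stayed near background in Zebu testis, and they were at least 11.7-fold and 15.1-fold higher. The probes with the heptamer had 128 and 109 in crossbred and 106 and 41.9 in Zebu testis, differences of 0.34 and 1.45. Of the 4 light chain probes that hold the heptamer, 3 were detected, all on both arrays, and 0 were higher. Of the 9 without it, all were detected and 8 were higher, the exception differing by -0.06. The exception is a predicted transcript whose annotation names a light chain in a next best match entry. Of these 9, 3 passed the filter through the crossbred array alone, among them both mRNA probes. Of the 6 detected on both arrays, 5 were higher. Among all detected probes 6.14% were higher, and among those detected on both arrays 5.4%. The 9 are not all variable region probes, since A_73_P376128 reads constant region, at position 651 of its listed transcript. A_73_P412691 and A_73_P105027 lie further along the same listed transcript, at positions 703 and 856. The comparison by heptamer thus mixes regions of the chain. On the strand of the probe the heptamer is in 0.671% of all probes and in 5 of the 31 immunoglobulin probes, and on either strand it is in 1.44% of all probes. The fifth of these is a predicted transcript whose annotation gives an IgM gene only as next best match, and it was at least 15.0-fold higher. The split is a description of these probes, whose number is small and whose genes share sequence.

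**Figure D4:**
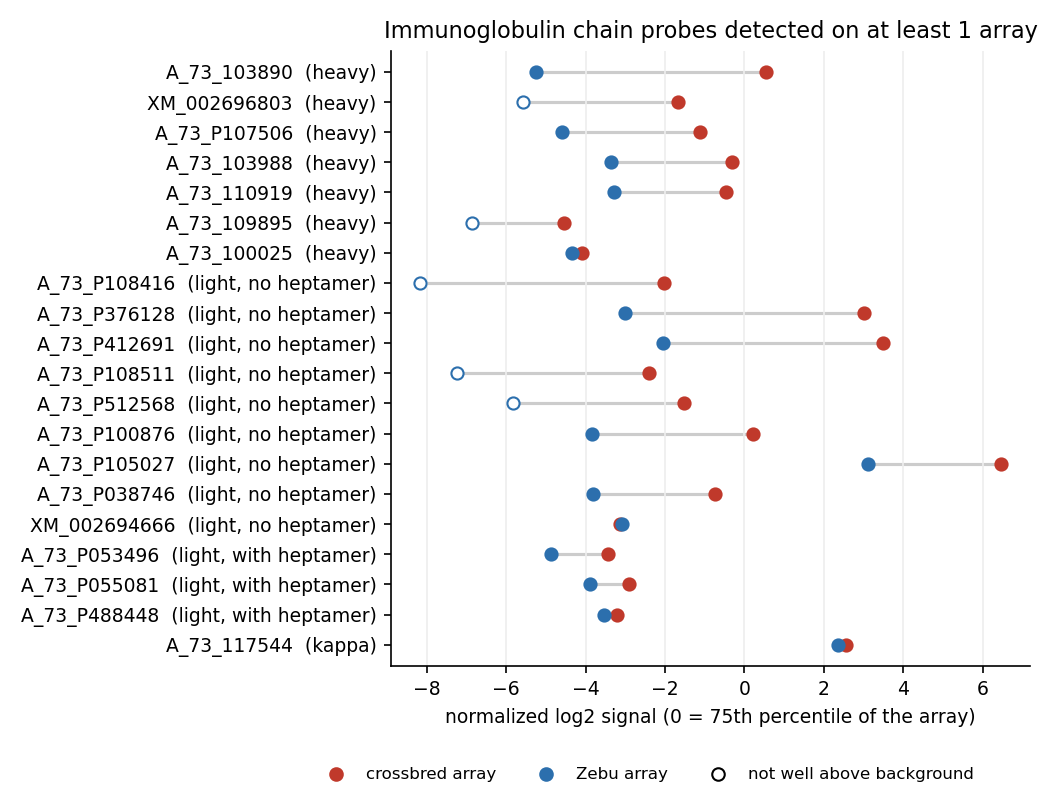
Normalized log2 signal (x axis) of the immunoglobulin chain probes detected on at least 1 array (y axis, probe and kind of chain) on the crossbred array (red) and the Zebu array (blue), open where not well above background. The 8 upper light chain probes of the group without the heptamer differ between the arrays by at least 3.07, those with it differ by 0.34 to 1.45, the kappa probe by 0.20 and the IgD probe (A_73_100025) by 0.26.

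The genes around the B cell receptor are read here against the shares over all gene names, 7.25% higher and 2.98% lower. Of 22 receptor and coreceptor genes on the array, 19 were detected, of which 1 was higher (IGLL1, already described among the light chains) and 1 was lower, with a median of 0.09, so both shares were near those over all gene names. CD37, a tetraspanin, differed by 1.0 and VPREB3, which is found with immature antibody chains, by 0.98. The other detected probe of CD37 was counted as higher, with a bound of 1.46 on the log2 scale, under the threshold. At the other end CD40, the receptor for T cell help, differed by -1.15, CD81 by -0.70 and FAIM3 by -0.21. LY86, the gene counted as lower, was detected on the Zebu array only, with a measured difference of -3.0 and a bound of at least 1.76-fold, under the threshold, and its spot lay in the dark patch of the crossbred array.

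Among 29 genes of receptor signalling, 27 were detected, 3 were higher and 1 was lower, with a median of -0.14. BLNK, the adaptor that links the receptor to its downstream enzymes, had -2.02 in crossbred and -4.13 in Zebu testis, a difference of 2.10. BANK1, a B cell scaffold protein, had -1.99 and -3.77, a difference of 1.78. PIK3CD, a lipid kinase subunit of leukocytes, differed by 1.63, but its spot lay in the bright patch and its other 3 detected probes differed by -0.56 to 0.09. PIK3AP1, an adaptor for that kinase, was counted as lower from a measured difference of -3.04, but its bound was at least 2.10-fold, under the threshold, and VAV3 differed by -1.03 and FYN by -0.95. BLNK and BANK1 were each read from a single probe outside both patches.

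Of 22 transcription factors of the lineage, 18 were detected, 0 were higher and 1 was lower, with a median of -0.32. EBF1, which acts with PAX5 in early B cells, differed by 0.84 in its brightest probe, and its 2 other detected probes differed by -1.62 and 1.20. SPI1 differed by 0.66 and LEF1 by 0.50. MYB was the factor counted as lower, at -1.65, and FOXP1 differed by -0.88 and BCL6 by -0.74. By difference or bound, the 2 other detected probes of MYB were at -0.84 and 0.72, so neither was counted as lower. On the same scale the other detected probe of FOXP1 was at 0.36 and that of BCL6 at 1.46. IKZF1, SPIB and BACH2 were among those not well above background on either array.

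Genes of plasma cells and of protein secretion numbered 25 on the array, all detected, of which 3 were higher and 0 were lower, with a median of -0.05. CXCL13, a chemokine that draws B cells, was at least 4.71-fold higher in its brightest probe, and its other detected probe was also higher. IL6, a cytokine that supports plasma cells, had -1.70 in crossbred and -3.87 in Zebu testis, a difference of 2.17. ERN1, the sensor of unfolded protein in the endoplasmic reticulum, was at least 2.86-fold higher. MZB1, an endoplasmic reticulum protein of antibody-secreting cells, differed by 1.45, just under the threshold, and CXCR5 by 1.06. XBP1 and PRDM1, the factors that drive the plasma cell program but are also used by other secretory cells, differed by -0.23 and -1.30. CXCL12 differed by -1.10 and PIM2 by -0.96.

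The nearest genes to the 7 by their difference were LEF1 at 0.50, PECAM1 at 0.47 and REL at 0.46. They were taken from the B lineage lists as those nearest to 0.50, the median of the 6 B and plasma cell genes detected in both pools, which compares 2 arrays only.

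Markers of other blood cells were read beside these genes, against the same shares over all gene names, 7.25% higher and 2.98% lower. All 12 markers shared by leukocytes were detected on both arrays and 0 were higher or lower, with a median of -0.17. Their summed signal, relative to the 75th percentile of the array, was 17.8 in crossbred and 22.5 in Zebu testis, and PTPRC, the common leukocyte surface protein, differed by -0.06. ITGAL differed by -0.76, CD52 by -0.58 and LCP1 by -0.55, against 0.35 for CORO1A and 0.32 for RAC2.

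Of 21 T and NK cell markers, 18 were detected, 2 were higher and 0 were lower, against 7.25% and 2.98% of all detected gene names. Their median was -0.56 and their summed signal was 12.6 in crossbred and 15.4 in Zebu testis. GZMB, a protease of killer cells, was higher by 2.64 and CD28, a T cell costimulator, by 1.97, while another probe of CD28 differed by -0.18 and the other probes of GZMB ranged from -1.36 to 2.65. ZAP70 differed by -1.36, CD8B by -1.24, CD7 by -1.05 and CD4 by 0.07. Of 12 macrophage markers all were detected, 1 was higher (AIF1, by 1.95) and 1 was lower (MSR1, by -1.55), with a median of 0.13 and a summed signal of 31.4 and 22.5. FCGR1A differed by 0.79, CD14 by 0.56, FCER1G by -0.20 and CSF1R by -0.19. The part of these cells in the antibody chain values was not tested.

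Of 10 red blood cell markers on the array, 6 were detected, 2 were higher (among them EPB42, by 3.19) and 1 was lower (HBA, by -2.15), with a summed signal of 3.98 and 3.45. HBB, ALAS2, SLC4A1 and CA1 were not well above background on either array, and HBQ1 differed by 0.58, HBM by 0.33 and AHSP by 0.09. All 22 testis markers were detected on both arrays. Of these, 6 were higher, among them genes of late spermatogenesis, with SPATA18 at 2.40, ODF1 at 2.13, PRM2 at 1.88, TNP2 at 1.74, AKAP4 at 1.71 and ACRV1 at 1.64. The 3 that were lower were the steroid enzymes HSD3B1 at -1.77 and CYP17A1 at -1.68 and the signal DHH at -1.53. Over all detected gene names, 7.25% were higher and 2.98% were lower. The part of the cell makeup that these markers describe in the values above was not tested.

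**Figure D5:**
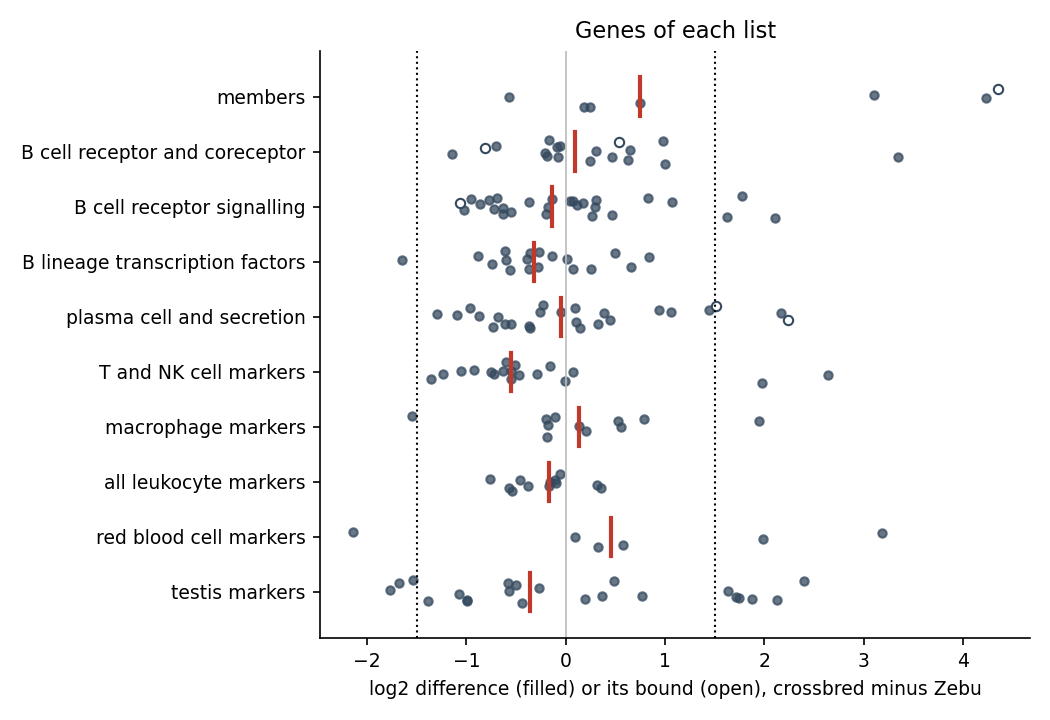
Log2 difference, crossbred minus Zebu (x axis, filled), or its bound (open), of each gene of each list (y axis) with the list's median in red and dotted lines at 1.5 in each direction. The leukocyte markers all lie between the dotted lines, whereas IGJ, PAX5 and MS4A1 of the 7 genes (members) and IGLL1 of the receptor list lie beyond 3.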

How the data were processed

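RNA pools of 3 crossbred and 3 Zebu bulls were each hybridized to 1 Agilent bovine array. The authors deposited a processed signal for each spot, an intensity that Feature Extraction 11.5.1.1 had corrected for background, and their own log2 values (GeneSpring GX), which were normalized to the 75th percentile of the array. The processed intensity was used here. Control spots and 13 spots marked as outliers were left out, the log2 values of spots with the same probe were averaged, and each array was shifted by its 75th percentile over probes. On the signal scale that was 1176 in crossbred and 1233 in Zebu testis, and 72.0% and 74.3% of the spots were well above background. The named genes are the 7 genes with all their probes, and in each list the genes past 1.5 and the 3 highest and 3 lowest among those well above background on both arrays. A few genes that this rule names are not reported here. XBP1 was named after its values were seen. The genes and lists were chosen with earlier results of these data known. No test was run, since each group had 1 array, and this number of arrays sets the precision. Normexp correction with an offset of 50, other shifts, thresholds, filters and probe rules were tried. Gene names were matched to the ARS-UCD2.0 gene table. The normalization and the call were tested on simulated data in which every spot was set as well above background. The detection filter, the bounds and the reading of adjacent spots were not tested in this way. Python 3.11.15, numpy, pandas, scipy, R 4.3.3 and limma 3.58.1 served for the computation.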

Additional observations from a re-analysis of the deposited data

How the results depend on the processing

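IGJ kept its direction and stayed past the threshold in every setting in which it was read, from 2.95 to 3.16. No paired analysis was possible because each group had 1 array, and for the same reason no replicate could be left out. CD79A stayed between 0.16 and 0.26, POU2AF1 between 0.15 and 0.19 and BLK between -0.60 and -0.32. MS4A1 moved most, to 2.58 with normexp background correction, 2.97 as the mean of its detected probes, 4.82 without the filter on dim probes, and, in settings chosen after seeing the data, 2.86 without spots whose adjacent spots were higher and 1.59 without probes whose spots lie over 3 apart. With normexp, PAX5 became 3.44, CD79B 0.41 and the median of the genes 0.41. Without spots whose adjacent spots were higher, PAX5 had no spot left and 2 of 6 genes were higher. Counting every probe, 5 of 9 were higher and the median was 1.59. Where both arrays had to be well above background, 9 of 15 immunoglobulin probes were higher. With the call made on the bound, also chosen after seeing the data, 13 immunoglobulin probes and 3 of the 7 genes were higher, and over all gene names 1663 were higher and 518 lower. Over all gene names, 1048 were higher and 173 lower with normexp, 3206 and 2209 at a threshold of 1, 884 and 311 at 2, and 5322 and 5515 at a linear fold of 1.5. The count lower was 1190 for every probe, 455 for the mean of detected probes and 399 where both arrays had to be well above background, against 737. The causes of these changes were not tested. Signal over background limits MS4A1 and the dim immunoglobulin probes to bounds.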

Other observations

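Relatives of the genes in sequence (MS4A, PAX and SRC families) were read beside them. Over all detected gene names, 7.25% were higher and 2.98% were lower. Of the MS4A family, 7 genes were on the array in the list used and all were detected, of which 2 were higher on the crossbred array and 1 was lower. MS4A14 had levels of 3.56 (crossbred) and 1.41 (Zebu), which differ by 2.15, and MS4A5 had 3.60 and 1.47, which differ by 2.13. MS4A13 differed by 1.09, MS4A7 by 0.59, MS4A10 by -0.06 and MS4A8B by -1.24. MS4A18, the gene counted as lower, was detected on the Zebu array only, with a measured difference of -2.04 and a bound of at least 2.78-fold, which is under the threshold of 2.83-fold.

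Of 7 PAX genes on the array beside PAX5, 5 were detected and 0 were higher. PAX3, detected on the crossbred array only, was at least 2.62-fold higher, which did not pass the threshold. PAX6 was lower by -1.51, PAX8 differed by -0.69, PAX1 by 0.12 and PAX9 by 0.22. Of 8 SRC family kinases all were detected and 0 passed the threshold in either direction. FGR differed by 0.31, SRC by 0.23, YES1 by -0.24, LCK by -0.64 and FYN by -0.95.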
